A study of Mus musculus with 10 samples.

Results

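The catecholamine receptors of adipocytes and the proteins that carry or end their cAMP signal were followed here in mouse inguinal white adipose tissue (iWAT), a fat pad under the skin of the groin. They comprise 7 genes, chosen by name as the rows of Adrb1, Adrb3, Adra1a, Adra2a, Pde3b, Prkar2b and Rgs2, out of 51826 genes listed in the count tables. Total RNA of 10 male mice of the C57BL/6 strain (C57BL6/JJmsSlc) was sequenced, with 1 library per mouse. The F0 mice were fed a control diet (CD, n = 2) or a low-protein diet (LPD, n = 2) after weaning, and were 10 to 12 weeks old. The F1 mice were 5 weeks old and were offspring of fathers fed the CD (n = 3) or the LPD (n = 3, called pLPD offspring). Their mothers ate the CD, as did the offspring themselves after weaning, and each of the 3 offspring in a group had a different mother. Whether each also had a different father is not stated. The labels name no transgene and no drug for any group, and p-values measure the spread between mice of a group. The design asks whether the diet of the father moves these genes in the offspring, and whether eating the diet moves them in the fathers' generation.

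Noradrenaline released from sympathetic nerves acts on fat cells through adrenergic receptors. Beta receptors raise cAMP through the stimulatory G protein, alpha-2 receptors lower it through the inhibitory one, and alpha-1 receptors signal through Gq and calcium instead. Cyclic AMP activates protein kinase A, which sets off lipolysis in white fat and heat production in brown and beige fat, and phosphodiesterases break the signal down.

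Exon reads per library ranged from 6351075 to 10044546, and levels are given as counts per 1000000 exon reads (CPM) after TMM normalisation. A count of 3 reads equals 0.299 to 0.472 CPM. Reads on introns took 40.7 to 48.4% of the reads on protein-coding genes in pLPD offspring and 36.0 to 37.5% in CD offspring. Exon reads took 39.3 to 45.4% of the reads on genes in pLPD offspring and 49.2 to 51.2% in CD offspring, with no overlap. A fit with this share as a covariate can therefore hardly tell it apart from the paternal diet. In that fit 15 genes in all passed an adjusted p under 0.05, beside 164 without the covariate (edgeR). In bulk tissue, fewer cells of a type cannot be told apart from less RNA per cell. Adipocyte markers, 8 genes that include Adipoq, Plin1 and Fabp4, summed to 15547 to 22175 CPM in all libraries, and none of the 8 passed the test for diet in either generation. Nearest was Cfd in F0, with a log2 fold change of -0.81 ± 0.17 (adjusted p = 0.0503, edgeR). Its diet effect in F1 minus that in F0 was 1.13 ± 0.23 (adjusted p = 0.0381, edgeR).

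On the scale of reads per length and depth (RPKM, the deposited values), Prkar2b had the highest level of the 7 genes in every group, at 72.4 ± 4.03 RPKM in F0 CD (mean ± SD, n = 2). Adrb3 and Pde3b followed in F0 CD, at 42.9 ± 4.59 and 37.6 ± 3.71 RPKM, and their ranges overlapped. Rgs2 had 5.04 ± 0.688, Adrb1 4.02 ± 1.54, Adra1a 0.900 ± 0.166 and Adra2a 0.431 ± 0.0234 RPKM, and the ranges of Rgs2 and Adrb1 overlapped. The beta-3 receptor was therefore listed far above the beta-1 receptor in this fat pad, and the alpha-2A receptor was the lowest of the set.

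**Figure D1:**
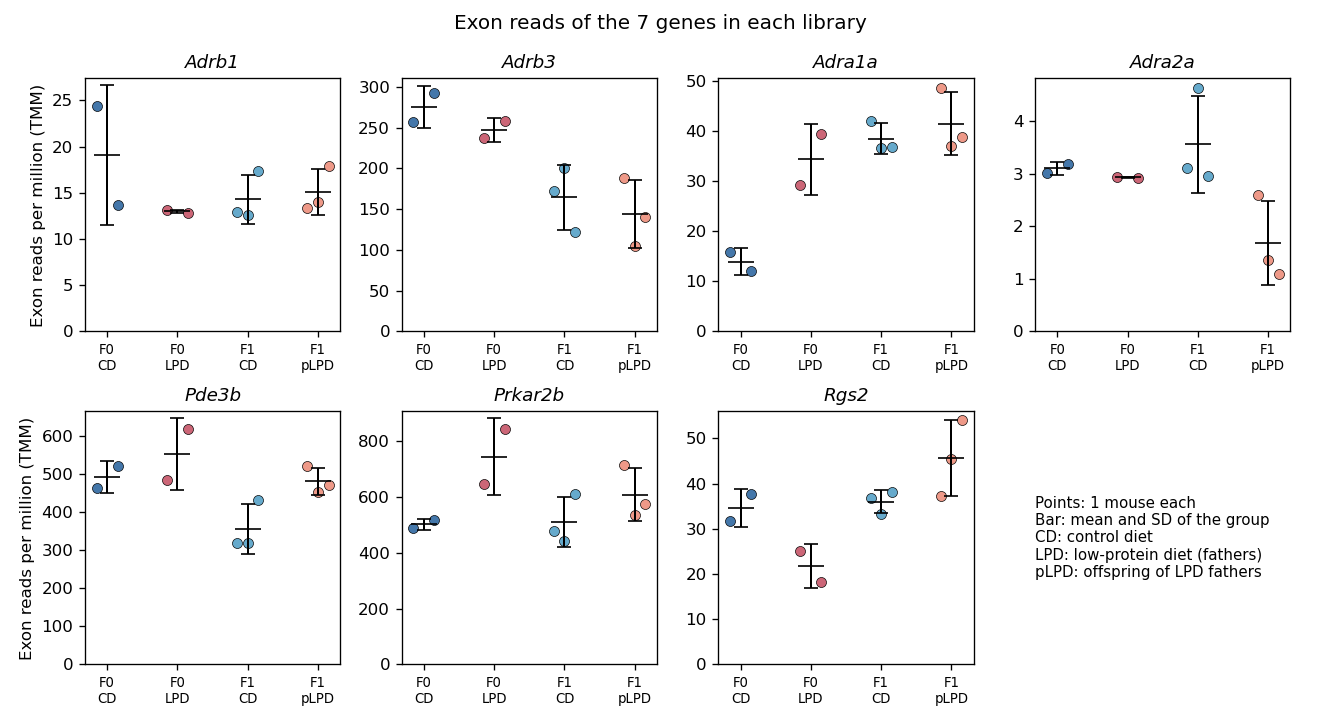
Exon reads of the 7 genes in CPM (vertical axes, from 0) in each of the 10 libraries (points), by group, with the mean and SD of the group (bars). Adra1a sits at 12.0 to 15.9 CPM in F0 CD and at 29.3 CPM or more in all other libraries.

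In the fathers' generation, 1 of the 7 genes passed the test for the diet, Adra1a, which was higher in LPD-fed mice. This compares with 2.5% of the 14581 genes tested. In the offspring 0 of 7 passed, beside 1.17% of 14049 genes, by edgeR's quasi-likelihood test with an adjusted p under 0.05. At an unadjusted p under 0.05, 3 of 7 genes passed in the offspring (Pde3b, Adra2a and Rgs2; 15.3% of all genes tested), and 3 of 7 in F0 (Adra1a, Rgs2 and Prkar2b; 15.7%). DESeq2 also called Pde3b in the offspring and Prkar2b in F0. The median log2 fold change of the 7 genes was 0.12 in the offspring and -0.08 in F0, beside 0.01 and 0.00 over all genes tested. CPM of the diet groups did not overlap for 2 of the 7 genes in the offspring (20.1% of all genes tested) and for 5 of 7 in F0 (46.5%).

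Adra1a encodes the alpha-1A receptor, the Gq-coupled member. The gene lies on chromosome 14 from 66635251 to 66733462 (mm10, plus strand), and its reads, 120 to 337 per library, all matched uniquely. The 2 F0 CD mice had 15.9 and 12.0 CPM, and the 2 LPD-fed mice had 29.3 and 39.4 CPM. Both LPD values were above both CD values. The fold was 2.47, a log2 fold change of 1.30 ± 0.18 (SE; adjusted p = 0.0136, edgeR). An exact permutation test of 2 against 2 mice cannot go below 0.333, the value it gave. The call held when either mouse of either group was left out, and adjusted p was 0.068 with limma on log2 RPKM.

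Reads on the introns of Adra1a, which come largely from unspliced transcripts, moved the same way. They made up 55.5 to 64.1% of all reads on the gene. In F0 the intron reads rose by 1.03 ± 0.19 on the log2 scale (adjusted p = 0.0186, edgeR, beside 3.51% of 14283 genes called on introns). The intron reads were 172 and 254 in CD mice against 394 and 421 in LPD-fed mice. In the offspring the log2 fold change on introns was -0.07 ± 0.13 (adjusted p = 0.878, edgeR).

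Among the offspring Adra1a had 42.1, 36.7 and 36.8 CPM with CD fathers, and 48.7, 37.0 and 38.8 CPM with LPD fathers. The groups overlapped, and the log2 fold change was 0.12 ± 0.12 (adjusted p = 0.704, edgeR). Its sign turned when pLPD replicate 1 was left out, with a value of -0.01, when the share of exon reads was a covariate, with -0.31, and with limma on log2 RPKM, with -0.05. The diet effect in F1 minus that in F0 was -1.20 ± 0.24 (adjusted p = 0.0303, edgeR, beside 1.25% of 15111 genes). That difference did not pass in 6 of 10 fits that left out 1 library. Adjusted p was 0.206 without F0 CD replicate 2, 0.166 without F0 LPD replicate 2, 0.073 without F1 CD replicate 1 and 0.0582 without F1 CD replicate 2. It was 0.0802 without pLPD replicate 2 and 0.0609 without pLPD replicate 3.

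The level of Adra1a in CD offspring, 38.5 ± 3.08 CPM (n = 3), was 2.77-fold that in CD-fed F0 mice, 13.9 ± 2.76 CPM (n = 2). The log2 difference was 1.47 ± 0.18 (adjusted p = 0.000139, edgeR). This comparison calls 18.9% of 15111 genes. Generation, age and any batch of libraries that follows generation cannot be told apart in it. The F0 LPD level of 34.4 ± 7.14 CPM overlapped the range of both offspring groups, so F0 CD stood alone at the low end of the order of levels.

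Most markers of brown and beige adipocytes moved with Adra1a in F0. Of 7 such genes, 5 rose in LPD-fed F0 mice. Dio2, with a log2 fold change of 1.19 ± 0.56, did not pass, nor did Ppargc1a, which went the other way, with -0.40 ± 0.18. In the offspring the median log2 fold change of the 7 was -0.32, beside 0.12 for Adra1a, and Ppargc1a alone passed, upward. The summed level was 144 to 271 CPM in F0 CD, 646 to 757 in F0 LPD, 1177 to 1750 in CD offspring and 748 to 2273 in pLPD offspring. Ucp1, the uncoupling protein that makes heat, had 58.5 and 13.5 CPM in F0 CD and 238 and 290.1 CPM in F0 LPD, a log2 fold change of 2.89 ± 0.47 (adjusted p = 0.0196, edgeR). Cidea, a lipid droplet protein of brown fat, rose by 1.62 ± 0.27 (adjusted p = 0.0233, edgeR), and Cox7a1, a subunit of cytochrome oxidase, by 1.48 ± 0.22 (adjusted p = 0.0169, edgeR). DESeq2 gave adjusted p of 0.0957 for Ucp1 and 0.0817 for Cidea, and without F0 LPD replicate 2 that of Ucp1 was 0.0554 (edgeR). In 3 of 4 groups the library with the highest Ucp1 also had the highest Adra1a. Groups of 2 or 3 mice often give such matches without any link. The part of these markers in the Adra1a result was not tested. Skeletal muscle genes went the other way, with 4 of 7 lower in F0 LPD and sums of 1338 to 1985 CPM in F0 CD, 691 to 944 in F0 LPD and 38.6 to 167 in the offspring, and their part was not tested either.

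**Figure D2:**
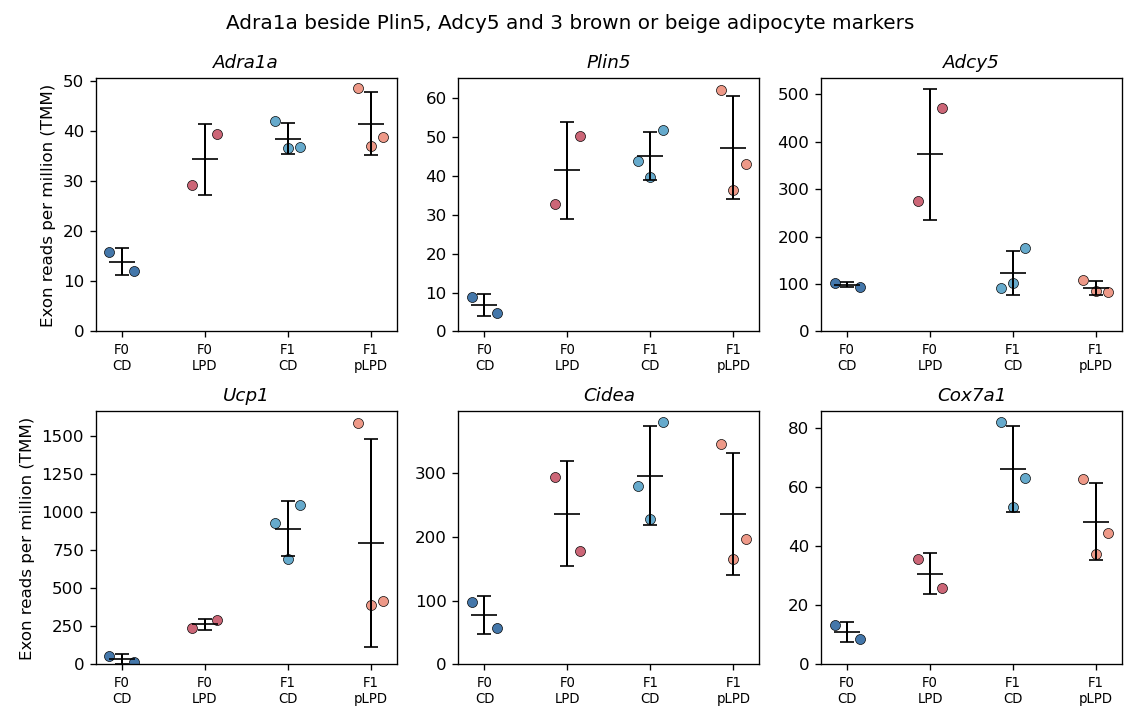
CPM (vertical axes, from 0) of Adra1a, Plin5, Adcy5 and the markers Ucp1, Cidea and Cox7a1 in each library (points), with the mean and SD of each group (bars). Adra1a, Plin5 and the 3 markers are lowest in F0 CD, whereas Adcy5 is highest in F0 LPD, at 276 and 472 CPM.

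Adrb3 encodes the beta-3 receptor, which in rodents is the main route of catecholamine lipolysis in fat. It lies on chromosome 8 from 27225776 to 27250616 (mm10, minus strand). CPM were 257 and 293 in F0 CD, 237 and 258 in F0 LPD, 172, 200.3 and 121 in CD offspring, and 188, 105 and 140.4 in pLPD offspring. The diet groups overlapped in both generations. The log2 fold change was -0.15 ± 0.11 in F0 (adjusted p = 0.56, edgeR) and -0.18 ± 0.20 in the offspring (adjusted p = 0.722, edgeR). In the offspring it was -0.79 with the share of exon reads as a covariate, -0.42 without pLPD replicate 1 and -0.00047 without pLPD replicate 2, and did not pass in any of these.

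Between the CD groups, Adrb3 was lower in offspring than in F0 mice, by -0.74 ± 0.21 on the log2 scale (adjusted p = 0.0271, edgeR), with no overlap (49.9% of all genes tested do not overlap here). The call was lost without F0 CD replicate 1 or 2 and without F1 CD replicate 1 or 3, with adjusted p from 0.0561 to 0.202, and DESeq2 gave 0.0619. Of the adipocyte markers, 4 of 8 were also lower in CD offspring than in F0 CD, and their part was not tested. A gene listed on the opposite strand, Gm45470, overlaps Adrb3 and had 73 to 299 exon reads per library against 772 to 2933. Whether the counting used strand is not stated, so reads of the pair cannot be told apart where they overlap.

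Adrb1 encodes the beta-1 receptor and has a single exon on chromosome 19 from 56722372 to 56724862 (mm10, plus strand). F0 CD mice had 24.4 and 13.7 CPM and F0 LPD mice 13.1 and 12.9 CPM. CD offspring had 13.0, 12.6 and 17.3 CPM, and pLPD offspring 13.3, 14.0 and 17.9 CPM. Of all libraries, F0 CD replicate 1 was the highest. The log2 fold change in F0 was -0.54 ± 0.25 (adjusted p = 0.336, edgeR), and without F0 CD replicate 1 it was -0.07, whereas without F0 CD replicate 2 it was -0.90 (adjusted p = 0.031). In the offspring it was 0.08 ± 0.18 (adjusted p = 0.868, edgeR).

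Adra2a, the alpha-2A receptor that restrains cAMP, has a single exon on chromosome 19 from 54045182 to 54048982 (mm10, plus strand). It was the most thinly covered of the 7 genes, with 7 to 40 reads per library. CD offspring had 3.10, 4.63 and 2.96 CPM and pLPD offspring 2.60, 1.36 and 1.09 CPM, with no overlap. The log2 fold change was -1.08 ± 0.40 (adjusted p = 0.231, edgeR), and the exact permutation test gave 0.1, the lowest it allows. The difference was -2.01 with the share of exon reads as a covariate (adjusted p = 0.546, edgeR) and -1.52 to -0.84 without single libraries. F0 mice had 3.02 and 3.20 CPM on CD and 2.94 and 2.92 CPM on LPD, a log2 fold change of -0.08 ± 0.30 (adjusted p = 0.939, edgeR). Macrophage markers were lower in the same pLPD offspring, 4 of 6 genes passing, with sums of 659.7 to 756 CPM against 943 to 1141 in CD offspring, and their part in the values of Adra2a was not tested.

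Pde3b, the phosphodiesterase through which insulin lowers cAMP in adipocytes, lies on chromosome 7 from 114415281 to 114539251 (mm10, plus strand). CD offspring had 319, 318 and 432 CPM and pLPD offspring 520, 453 and 470.1 CPM. All 3 pLPD values were above all 3 CD values. This gave a log2 fold change of 0.44 ± 0.12 (adjusted p = 0.118, edgeR; exact permutation p = 0.1). Adjusted p was 0.0218 in DESeq2, and 0.00698 without F1 CD replicate 3, with a log2 fold change of 0.60. The value was 0.37 without F1 CD replicate 2 (adjusted p = 0.402, edgeR), 0.29 with limma on log2 RPKM (adjusted p = 0.311) and 0.27 with the share of exon reads as a covariate (adjusted p = 0.805, edgeR). On introns the difference was 0.27 ± 0.09 (adjusted p = 0.178, edgeR, beside 0.41% of 13412 genes called).

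Among F0 mice Pde3b had 463 and 521 CPM on CD and 485 and 619 CPM on LPD, and the groups overlapped. On exons the log2 fold change was 0.16 ± 0.14 (adjusted p = 0.649, edgeR). Intron reads, which made up 44.3 to 58.6% of reads on the gene, rose by 0.32 ± 0.07 in F0 (adjusted p = 0.0469, edgeR). CD offspring had less Pde3b than CD-fed F0 mice, by -0.47 ± 0.14 on the log2 scale (adjusted p = 0.0396, edgeR), a call that was lost when F0 CD replicate 1 or 2 or F1 CD replicate 1 or 2 was left out (adjusted p from 0.0709 to 0.286).

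Prkar2b encodes the RII-beta regulatory subunit, the main regulatory subunit of protein kinase A in fat. It lies on chromosome 12 from 31958476 to 32061296 (mm10, minus strand). F0 mice had 487 and 516 CPM on CD and 647 and 843 CPM on LPD, with no overlap. That is a log2 fold change of 0.57 ± 0.14 (adjusted p = 0.0786, edgeR), and DESeq2 gave an adjusted p of 0.00373. Without F0 LPD replicate 1 it was 0.74 (adjusted p = 0.0102, edgeR) and without F0 LPD replicate 2 it was 0.37 (adjusted p = 0.207). Without F0 CD replicate 1 or 2 adjusted p was 0.332 and 0.277 (edgeR). CD offspring had 479, 441 and 611 CPM and pLPD offspring 714, 533 and 574 CPM, which overlapped. Their log2 fold change was 0.26 ± 0.14 (adjusted p = 0.416, edgeR), and it was -0.15 with the share of exon reads as a covariate. Introns held 30.2 to 45.6% of the reads on the gene. On them the log2 fold change was 0.29 ± 0.10 in F0 (adjusted p = 0.209, edgeR) and -0.11 ± 0.13 in the offspring (adjusted p = 0.78, edgeR).

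Rgs2 encodes a regulator of G protein signalling that shortens Gq signals and is induced by cAMP in many cells. It lies on chromosome 1 from 143999338 to 144004161 (mm10, minus strand). F0 mice had 31.7 and 37.7 CPM on CD and 25.1 and 18.2 CPM on LPD, and both LPD values were below both CD values. CD offspring had 36.7, 33.2 and 38.0 CPM and pLPD offspring 37.2, 45.4 and 54.1 CPM, and these groups overlapped. The log2 fold change was -0.67 ± 0.16 in F0 (adjusted p = 0.0729, edgeR) and 0.35 ± 0.13 in the offspring (adjusted p = 0.237, edgeR). Without F0 LPD replicate 1 the F0 value was -0.93 (adjusted p = 0.0238, edgeR), without F0 LPD replicate 2 it was -0.47 (adjusted p = 0.291), and without F0 CD replicate 2 it was -0.54 (adjusted p = 0.277). That of the offspring was 0.21 without pLPD replicate 3 and 0.75 with the share of exon reads as a covariate, and did not pass in either. On introns, with 11 to 29 reads per library, the log2 fold change was -0.40 ± 0.43 in F0 and -0.02 ± 0.33 in the offspring, and passed in neither. The difference between generations on exons was 1.02 ± 0.23 (adjusted p = 0.0543, edgeR). It passed in 7 of 18 alternative fits, among them DESeq2 (adjusted p = 0.011), and adjusted p ranged from 1.12e-05 to 0.282 over the 18.

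**Figure D3:**
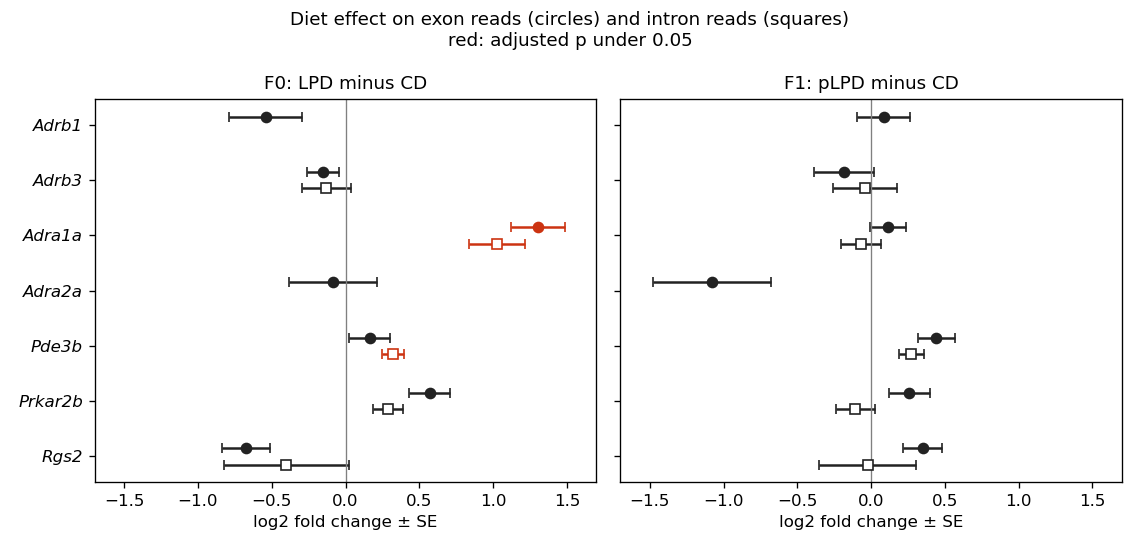
Log2 fold change of the diet with its SE (horizontal axes) for each gene on exon reads (circles) and, for genes with introns, on intron reads (squares), in F0 (left) and in the offspring (right), with calls at an adjusted p under 0.05 in red. Adra1a in F0 is called on both kinds of reads, at 1.30 and 1.03, and no gene is called in the offspring.

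RefSeq start sites on GRCm38.p6 matched 4 of the 7 genes (Adrb1, Adra2a, Prkar2b and Rgs2), and Adrb3, Adra1a and Pde3b are not in the table of start sites used here. The 250 bases before each start were searched for the letters TGACG or its reverse complement CGTCA, the half-site of the cAMP response element that CREB binds. A half-site was found for Rgs2, with 2 matches, for Adra2a, with 1, and for Adrb1, with 1. None was found for either of the Prkar2b starts. The same letters occur in 17.8% of 32851 promoter windows of this length, and the full 8-base element, TGACGTCA, in 1.55% and in none of the 4 genes. The windows of the 4 genes held 67.6 to 75.6% G or C, beside a median of 52.4% over all windows. The part of this in the matches was not tested, so 17.8% is not a like share for them. Those of Rgs2, at chr1:144004150-144004399 on the minus strand, and Adrb1, at chr19:56721867-56722116 on the plus strand, are shown with the half-site in capitals, because they are a receptor that raises cAMP and a regulator that cAMP induces. RefSeq starts differ from the gene ends listed with the counts. The window of Rgs2 and 1 of those of Prkar2b run a short way into the listed gene, and the other Prkar2b window lies wholly inside it. That of Adra2a ends at 54045258, past the listed start at 54045182. Its match, 69 bases before the RefSeq start, lies inside the listed gene. The Adrb1 window ends at 56722116, before the listed start at 56722372.
Rgs2: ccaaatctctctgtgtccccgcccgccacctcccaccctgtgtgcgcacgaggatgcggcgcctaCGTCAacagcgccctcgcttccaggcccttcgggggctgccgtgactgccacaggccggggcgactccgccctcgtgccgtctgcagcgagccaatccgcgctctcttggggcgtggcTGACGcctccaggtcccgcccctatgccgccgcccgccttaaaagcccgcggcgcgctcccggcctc
Adrb1: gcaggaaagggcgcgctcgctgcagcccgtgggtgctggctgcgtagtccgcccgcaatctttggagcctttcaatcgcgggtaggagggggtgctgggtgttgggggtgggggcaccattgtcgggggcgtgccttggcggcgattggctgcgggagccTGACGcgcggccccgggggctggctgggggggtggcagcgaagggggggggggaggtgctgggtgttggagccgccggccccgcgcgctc
The matches in Rgs2 begin 185 and 67 bases before the RefSeq start, and that in Adrb1 begins 90 bases before its RefSeq start. They describe letters and not binding.

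Other genes of the pathway were described in 11 lists with 127 genes, chosen with earlier results of these data known. The shares given here therefore describe the lists and are no test of the pathway. In F0, 7 of 118 tested genes were higher on the LPD and 2 lower, which is 7.63% beside 2.5% of all genes. In the offspring 1 of 115 was higher and 3 lower, which is 3.48% beside 1.17%. Median log2 fold changes were 0.06 in F0 and -0.01 in the offspring.

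Of the 5 other adrenergic receptors, 3 were tested and none passed for diet in either generation. Of 16 further Gs- or Gi-coupled receptors, 1 passed in F0. Ffar2, a receptor for short-chain fatty acids, rose by 1.43 ± 0.22 on the log2 scale (adjusted p = 0.0177, edgeR). The adenosine A1 receptor Adora1, the most abundant of these, had 118 ± 6.43 CPM in F0 CD and 129.7 ± 10.1 in F0 LPD and did not pass.

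Among the adenylyl cyclases, which make cAMP, 2 of 9 tested genes rose in F0 and 1 of 8 fell in the offspring. Adcy5 had 102 and 94.7 CPM in F0 CD against 276 and 472 CPM in F0 LPD, a log2 fold change of 1.92 ± 0.22 (adjusted p = 0.00627, edgeR). With intron reads included it was 0.89 and did not pass (adjusted p = 0.103, edgeR). Adcy3 rose by 0.45 ± 0.08 (adjusted p = 0.0345, edgeR), and the call was lost whichever of the 4 libraries was left out. In the offspring Adcy10, the soluble cyclase, had 28.3, 31.6 and 17.6 CPM with CD fathers and 6.74, 7.59 and 10.3 CPM with LPD fathers. Its log2 fold change was -1.65 ± 0.23 (adjusted p = 0.00984, edgeR), and adjusted p was 0.0616 without F1 CD replicate 1 and 0.064 without pLPD replicate 2. Adcy6, the most abundant cyclase, did not pass in either generation.

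Of 10 G protein alpha subunits, Gnal alone passed in F0, with a log2 fold change of 1.06 ± 0.18 (adjusted p = 0.0233, edgeR). It overlaps Chmp1b, and with intron reads included the value was 0.20 (adjusted p = 0.603, edgeR). The call was also lost without F0 CD replicate 1 or F0 LPD replicate 2. Gnas, the stimulatory subunit, was the most abundant at 827 CPM over all libraries and did not pass. Of 15 other phosphodiesterases, Pde1a alone passed in F0, with a log2 fold change of -0.56 ± 0.10 (adjusted p = 0.0266, edgeR), a call lost without F0 CD replicate 2 or either F0 LPD mouse. Of 19 kinase A subunits, anchors and Epac genes, Akap1, the anchor at the mitochondrial surface, alone passed in F0, by 0.66 ± 0.12 (adjusted p = 0.0315, edgeR). That call was lost without F0 CD replicate 2 or F0 LPD replicate 2. Akap13, the most abundant of this list, and Pde7a, the most abundant phosphodiesterase, did not pass. The 6 CREB genes and coactivators, Creb1 the most abundant, had no call in either generation.

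Of 17 RGS proteins, receptor kinases and arrestins, Rgs3 alone passed, in F0, and the most abundant, Rgs5, did not. Rgs3 had 115 and 137 CPM in F0 CD and 73.3 and 72.9 CPM in F0 LPD, a log2 fold change of -0.78 ± 0.10 (adjusted p = 0.0113, edgeR). Of 11 genes induced early by cAMP, of which Per1 was the most abundant, Fos rose in F0 by 1.36 ± 0.23 (adjusted p = 0.0243, edgeR), and the call was lost without F0 CD replicate 2 or F0 LPD replicate 2. Ppargc1a, a coactivator of mitochondrial genes, rose in the offspring. It had 18.9, 16.2 and 16.5 CPM with CD fathers and 46.7, 27.0 and 32.9 CPM with LPD fathers, a log2 fold change of 1.05 ± 0.18 (adjusted p = 0.026, edgeR).

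Th, the first enzyme of catecholamine synthesis, had 0 reads in all libraries. Of 7 lipolysis genes, G0s2, an inhibitor of adipose triglyceride lipase, rose in F0 by 1.05 ± 0.12 (adjusted p = 0.00669, edgeR), though as few as 5.04% of its exon reads matched uniquely. Abhd5, the activator of that lipase, was lower in pLPD offspring by -0.49 ± 0.09 (adjusted p = 0.0347, edgeR). Pnpla2, the lipase itself, had 2112 CPM over all libraries and did not pass in either generation. Adcy3, G0s2 and Abhd5 each overlap a gene on the opposite strand, with reads that cannot be told apart in the same way as for Adrb3.

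Of Ppargc1a, Adcy10 and Abhd5, the calls in the offspring described above, none held with the share of exon reads as a covariate. The values were then 0.30 for Ppargc1a, -1.20 for Adcy10 and -0.28 for Abhd5, with adjusted p from 0.529 to 0.773 (edgeR). That fit hardly separates the share from the paternal diet and called 15 genes in all, so it cannot decide about these calls. The calls of Abhd5 and Ppargc1a were also lost without F1 CD replicate 1 or 2 and without pLPD replicate 1, and that of Abhd5 without pLPD replicate 2 (adjusted p from 0.0541 to 0.145 over these fits, edgeR).

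**Figure D4:**
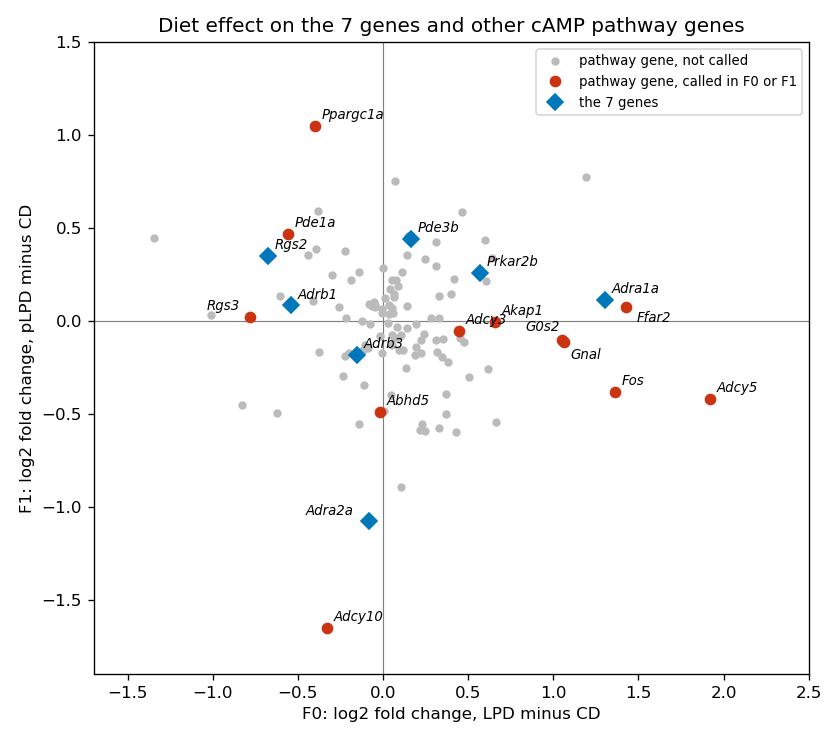
Log2 fold change of the diet in F0 (horizontal axis) and of the paternal diet in the offspring (vertical axis) for the 7 genes (diamonds) and pathway genes tested in both (circles), with genes called in either in red and named. Adcy5 sits at 1.92 in F0 and at -0.42 in the offspring.

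Genes whose levels moved most like each of the 7 were ranked over the 10 libraries by Pearson's r of log2 CPM after the mean of each generation was taken out, among genes with at least 10 CPM. The libraries share diet, tissue and depth, so these values describe likeness only. Adra1a was most like Ago2 (r = 0.985) and Plin5 (r = 0.982), the latter a lipid droplet protein of oxidative tissues. Prkar2b was most like Ube2h (r = 0.966) and Camk2d (r = 0.962), and Pde3b like Ivns1abp (r = 0.962) and Picalm (r = 0.957). Rgs2 was most like Coro1b (r = 0.960) and Ptma (r = 0.956), and Adra2a like Csf2rb (r = 0.966) and Ppm1l (r = 0.962). Adrb3 was most like Zxdb (r = 0.934) and Mif (r = 0.917), and Adrb1 like Cdk5rap1 (r = 0.943) and Ddx47 (r = 0.904). Among the 7 genes themselves, Pde3b and Prkar2b were the most alike (r = 0.803), and Adra1a and Rgs2 the most opposed (r = -0.789).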

How the data were processed

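Total RNA of iWAT from 10 mice was depleted of rRNA and made into directional libraries, which the authors aligned with CLC Genomics Workbench, using mm10 as the genome build. The deposited counts are the authors' numbers of reads on exons, introns and whole genes, not normalized, and whether counting used strand is not given in the sources used here. The deposited RPKM values are exon reads that the authors divided by exon length and depth, used here for levels between genes and for 1 alternative.

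The diets were compared within each generation in R 4.3.3 with edgeR 4.0.16 on total exon reads (filterByExpr, TMM, two-sided quasi-likelihood F test, Benjamini-Hochberg adjustment over all genes tested, threshold 0.05). The difference between generations and F1 CD against F0 CD came from a fit of all 10 libraries. The SE is the log2 fold change over the square root of F. Alternatives used DESeq2 1.42.0, limma 3.58.1, other filters and reads, and left out each library. Exact permutation tests used log2 CPM with 0.5 added. Scripts were tested on simulated data. Library totals were 6351075 to 10044546 exon reads. The counting error of a gene depends on its own reads, from 7 (Adra2a) to 7204 (Prkar2b) per library among the 7 genes.

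The 7 genes, the pathway lists and the marker lists were chosen with earlier results of these data known. Named from each pathway list were the genes past the threshold in either generation, at most 3 by smallest p, and the one with the highest mean CPM, and for each of the 7 genes the 2 most alike. Some genes this rule names are not reported here.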

Additional observations from a re-analysis of the deposited data

Results flagged for a closer look

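The diet effect differed between the offspring and F0 for 6 genes named in the report, besides the adipocyte marker Cfd given above. This was by the test of generation and diet together (edgeR, adjusted over all genes). For Adra1a the log2 fold change in F1 minus that in F0 was -1.20 (adjusted p = 0.0303), and both mice on the LPD were above both on the CD in F0 while the offspring groups overlapped. For the cyclase Adcy5 it was -2.35 (adjusted p = 0.011). For Plin5, named for its likeness to Adra1a over these same libraries and so not independent of it, it was -2.56 (adjusted p = 0.00884). Both calls were lost without F0 CD replicate 2, at adjusted p = 0.0875 and 0.0735 (edgeR). For Ppargc1a it was 1.44 (adjusted p = 0.041) and for Rgs3 0.80 (adjusted p = 0.0275). These 2 calls held in 3 and 4 of the 10 fits that left out 1 library, with adjusted p up to 0.223 and 0.178 (edgeR), both without F0 CD replicate 2. With intron reads included, that of Ppargc1a was 0.30 (adjusted p = 0.545, edgeR). For Cox7a1, one of the brown and beige adipocyte markers, it was -1.94 (adjusted p = 0.0221, edgeR). That call was lost without F0 CD replicate 2 (adjusted p = 0.159), F0 LPD replicate 1 (0.0719), F1 CD replicate 1 (0.0544) or pLPD replicate 2 (0.0532, edgeR). Groups of 2 or 3 mice are too small for a check on single samples that lie apart.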

How the results depend on the processing

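With 2 or 3 mice a group, calls near the threshold moved with the processing. The number of the 7 genes past the threshold in the offspring went from 0 to 1 (Pde3b) with DESeq2 and with no filter on low counts, and lay between 0 and 1 when single libraries were left out. In F0 it went from 1 to 2 with DESeq2, to 4 with no filter, and to 0 with limma on log2 RPKM, and from 1 to 3 without single libraries. For the difference between generations it was 1 in the main fit, beside 1.25% of 15111 genes. It became 2 with DESeq2, with no filter, with at least 10 reads in every sample and with uniquely matching reads. With intron reads included and with limma on log2 RPKM it was 0, and without single offspring libraries 0 to 2. Genes called in all went from 189 in the main fit to 74 with limma and 890 with no filter. For F1 CD against F0 CD it was 3 of 7, beside 18.9% of 15111 genes, and 1 to 3 without single offspring libraries. Pathway genes past the threshold in the offspring, 4, became 14 with no filter, 2 with limma on log2 RPKM, 1 with the share of exon reads as a covariate and 0 to 8 without single libraries. In F0 the 9 became 31 with no filter, 5 with all 4 groups in one fit, 1 with limma on log2 RPKM and 4 to 15 without single libraries. Without a filter the genes called in all rose from 164 to 798 in the offspring and from 364 to 1343 in F0. The RPKM alternative moved the median of all genes in the offspring to -0.15. The cause of these changes was not tested.

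Replicate numbers are shared between groups. Deviations from the group means were weakly correlated between same-numbered F1 mice (r from 0.0091 to 0.0736, beside -0.0816 to 0.0658 for different numbers). In F0 r was 0.0563, and with 2 mice a group the different-numbered pairs only mirror this value. These values cannot decide whether the numbers pair the mice, and the main fits treat the mice as unpaired. With the replicate number as a block, 4 of the 7 genes passed in F0 and 29 pathway genes, of 1391 genes called in all.

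Signs turned for values that did not pass the test. In the offspring these were Adrb1 (-0.072 with limma on log2 RPKM, -0.057 to 0.24 without single libraries), Adra1a (-0.051 and -0.31 with limma and with the exon share, -0.011 to 0.19 without single libraries) and Prkar2b (-0.15 with the exon share). In F0 it was Pde3b (-0.021 to 0.33 without single libraries). Between generations it was Adrb3 (-0.27 to 0.16 without single libraries). Between the CD groups these were, without single libraries, Adrb1 (-0.41 with all libraries, -0.77 to 0.054), Adra2a (-0.038 to 0.31), Prkar2b (-0.13 to 0.12) and Rgs2 (-0.074 to 0.18), with -0.15 for Prkar2b with introns and -0.12 and -0.071 for Prkar2b and Rgs2 with limma on log2 RPKM. Of all alternatives for single genes, 645 kept their direction and their side of the threshold, 108 lost a call, 20 gained one and 20 turned sign. Adra2a, with 7 reads at lowest, was not tested at 10 reads in every sample in the fits that include offspring.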

Other observations

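Plin5 ranked second among genes like Adra1a over these same libraries, diet groups included, so its values are not independent of those of Adra1a. It had 8.73 and 4.79 CPM in F0 CD and 32.7 and 50.3 CPM in F0 LPD, a log2 fold change of 2.63 ± 0.28 (adjusted p = 0.00501, edgeR). In the offspring it had 43.7, 39.7 and 51.7 CPM with CD fathers and 62.2, 36.5 and 43.2 CPM with LPD fathers, and the groups overlapped. Plin5 and Adra1a both had their lowest values in F0 CD and their highest in pLPD replicate 1, the library that also had the highest Ucp1, 1583 CPM, and the largest share of intron reads, 48.4%.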
